A study of Mus musculus with 9 samples.

Results

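The Toll-like receptor family was examined as 10 genes, Tlr1, Tlr2, Tlr3, Tlr4, Tlr5, Tlr6, Tlr7, Tlr8, Tlr9 and Tlr13, chosen by their mouse symbols from the 45777 genes of the tables and matched by Entrez gene ID. All 10 were among the 13820 genes tested. Each was above 3 TPM (a transcript level scaled to transcript length and library size) in all 9 samples, so no member was kept by the filter on low values through 1 group alone. RNA was sequenced in bulk from CD11b+ cells, that is monocytes, macrophages, neutrophils and other myeloid cells, isolated from mouse livers 48 hours after acetaminophen (APAP) was given intraperitoneally to bring on acute liver failure. All 9 samples received APAP, so the data hold no uninjured liver. The 3 samples of the PBS group (titled APAP) had PBS, the 3 of the HEK-EV group (titled APAP+HEKSIRP-EV) had SIRP-EVs made by HEK cells (a line from human embryonic kidney), and the 3 of the MSC-EV group (titled APAP+SIRP-EV) had SIRP-EVs made by MSCs (mesenchymal stem or stromal cells). The extracellular vesicles (EVs) were given intravenously 8 hours after APAP. Strain, sex, age, doses and whether each sample was 1 animal or a pool are not given in the sources used here, so the p-values measure the spread between these samples.

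Toll-like receptors are membrane proteins that bind microbial molecules and molecules released by dying cells, and they start inflammatory signalling through a cytoplasmic domain that recruits adaptor proteins. At the cell surface, TLR2 paired with TLR1 or TLR6 binds bacterial lipopeptides, TLR4 with its partner MD-2 binds lipopolysaccharide, and TLR5 binds flagellin. In endosomes, TLR3 binds double-stranded RNA, TLR7 and TLR8 bind single-stranded RNA and its breakdown products, TLR9 binds DNA rich in unmethylated CpG, and TLR13 binds bacterial ribosomal RNA. In the liver these receptors are studied on Kupffer cells and infiltrating monocytes, which meet bacterial products from the portal blood and nucleic acids from dead hepatocytes.

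In the files, on build mm10, Tlr1 lay at chr5:64924680-64933600 and Tlr6 beside it at chr5:64952030-64970942, both on the minus strand. Tlr7 (chrX:167303380-167330574) and Tlr8 (chrX:167241123-167264329) were neighbours on the minus strand, and Tlr13 lay on the plus strand at chrX:106143275-106160493. Tlr2 lay at chr3:83836272-83841824, Tlr3 at chr8:45395665-45411075, Tlr4 at chr4:66827551-66846581, Tlr5 at chr1:182954752-182976044 and Tlr9 at chr9:106222598-106226876. Only Tlr6 overlapped other genes of the tables, Fam114a1 and Mir574 on the opposite strand. In GENCODE M21 the longest coding sequence ran from 2352 bases in Tlr2 to 3150 bases in Tlr7. It sat in 1 exon in Tlr1, Tlr2 and Tlr6, and at least 98.5% of it in 1 exon in Tlr5, Tlr7, Tlr8, Tlr9 and Tlr13. Tlr3 was the most divided, with 4 coding exons.

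Tlr1 and Tlr6 are near-copies over part of their coding sequence, which limits how well reads can tell them apart. Of the 50-base windows of the coding sequence, 19.4% in Tlr1 and 19.2% in Tlr6 occurred unchanged in the other gene, and 0% of those of the other 8 members occurred in a transcript of any other gene. Their longest identical run is shown because a read from within it fits both genes. It is 229 bases long and covers coding bases 1468 to 1696 of Tlr1 (chr5:64925537-64925765, GRCm38, minus strand) and 1507 to 1735 of Tlr6 (chr5:64953828-64954056).
Tlr1 and Tlr6, shared coding run: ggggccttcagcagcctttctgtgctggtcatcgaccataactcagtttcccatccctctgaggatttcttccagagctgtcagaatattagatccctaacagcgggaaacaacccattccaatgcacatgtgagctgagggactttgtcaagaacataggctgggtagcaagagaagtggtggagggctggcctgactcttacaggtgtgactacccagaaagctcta
How the authors' counting shared such reads is not given in the sources used here, so the split of signal between Tlr1 and Tlr6 is uncertain.

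The read depth is unknown, since the tables hold no counts. Coverage over FPKM, whose median over genes grows with depth, was 5.16 to 6.17 in PBS, 6.11 to 6.33 in HEK-EV and 6.44 to 6.70 in MSC-EV, lowest in PBS replicate 1. Genes above 0 TPM numbered 20342 to 20570, 20437 to 21051 and 21119 to 21172 in the same order. The 3 MSC-EV libraries thus stood above the 6 others in both measures. A fit with depth as a covariate therefore cannot separate depth from the MSC-EV group. The 8 myeloid markers set for CD11b+ cells were all tested, and their summed level ran from 22350 to 28170 TPM over the 9 samples. Of these, Itgam, which encodes CD11b, and Ptprc, which encodes CD45, fell in MSC-EV against HEK-EV (log2 differences -0.70 and -0.53, adjusted p = 0.0257 and 0.0207 in limma), and Cd68, a lysosomal marker of macrophages, rose (0.33, adjusted p = 0.0443). Ptprc also fell against PBS (-0.46, adjusted p = 0.0271). Transcripts of pancreatic acinar cells set HEK-EV replicates 1 and 2 and MSC-EV replicates 1 and 3 (36.7 to 3048 TPM summed over 16 genes) apart from the other 5 samples (11.5 to 14.2 TPM).

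The receptors spanned a wide range of levels, and their order by TPM hardly varied between samples. By coverage per base, another column of the files, the group means put Tlr3 above Tlr6 in all 3 groups, Tlr2 above Tlr7 in PBS and HEK-EV, Tlr8 above Tlr1 in HEK-EV and Tlr8 above Tlr7 in MSC-EV, each the opposite of TPM. On the TPM scale Tlr13 was the highest of the 10 in every sample, Tlr6, then Tlr3, then Tlr5 closed the order in every sample, and each other member kept to 2 neighbouring places. In the PBS group the mean levels were 213 TPM for Tlr13, 164 for Tlr7, 148 for Tlr2, 111 for Tlr8, 98.0 for Tlr1, 70.0 for Tlr9, 46.0 for Tlr4, 27.9 for Tlr6, 13.2 for Tlr3 and 6.53 for Tlr5. The sample ranges of Tlr7 and Tlr2, of Tlr8 and Tlr1, and of Tlr1 and Tlr9 overlapped in that group, so those neighbours were not set apart by their spread. In the HEK-EV group the ranges of Tlr7 and Tlr2 and of Tlr1 and Tlr8 overlapped. In the MSC-EV group Tlr2 stood above Tlr7 and Tlr4 level with Tlr9, where the ranges of Tlr8 and Tlr1 and of Tlr4 and Tlr9 overlapped.

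**Figure D1:**
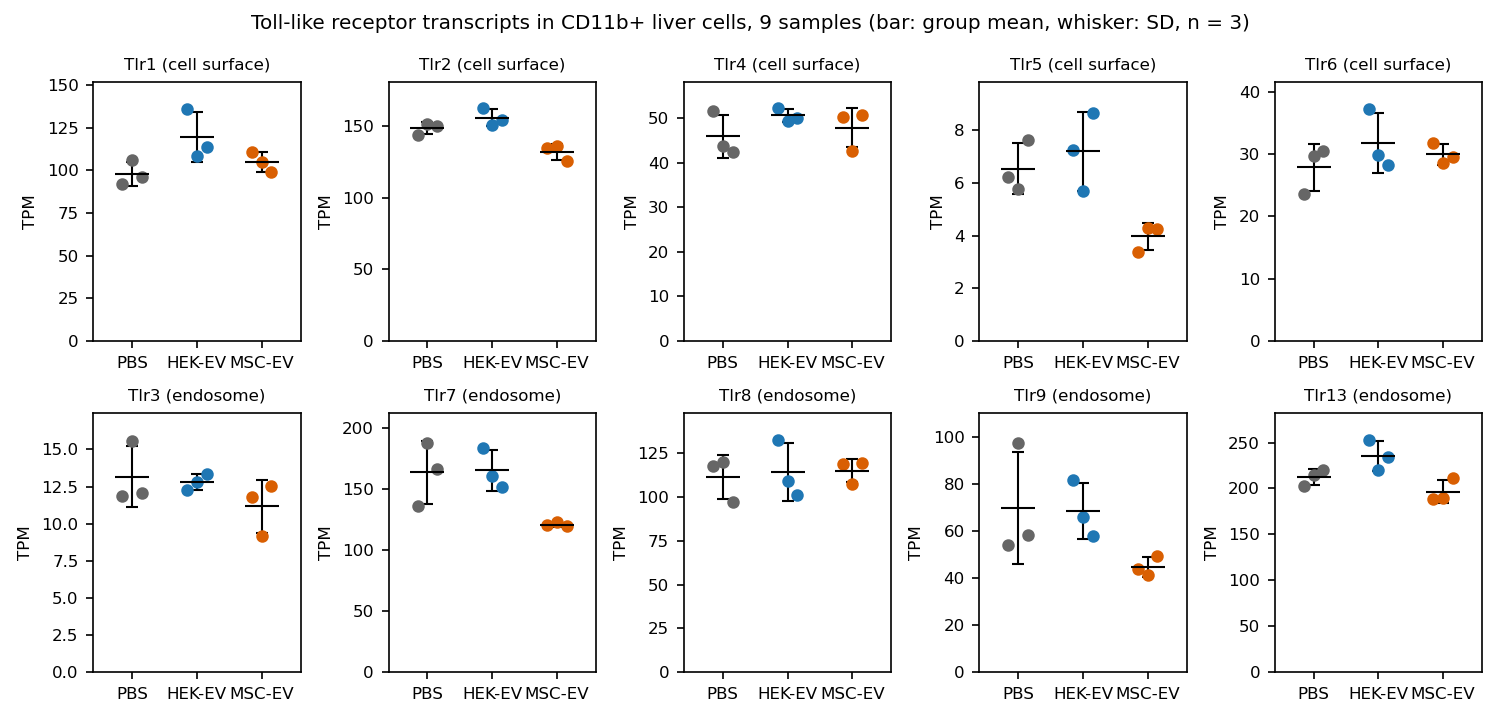
Level of each receptor in TPM (vertical axis, from 0, a scale of its own in each panel) in the 9 samples, by group; points are samples, bars the group mean and whiskers the SD (n = 3). The MSC-EV points of Tlr2, Tlr5, Tlr7 and Tlr9 lie below all 6 points of the other groups.

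Tlr5 and Tlr2 fell in MSC-EV against HEK-EV. The difference was negative in 9 of the 10 members, though that of Tlr4 turned positive with depth as a covariate and that of Tlr6 without HEK-EV replicate 1, and Tlr8 was positive at 0.02. In limma on log2(TPM + 1), with Benjamini-Hochberg adjustment over all genes tested, 2 of 10 members fell and 0 rose at an adjusted p under 0.05. Over all genes tested 4.4% fell and 1.51% rose (5.91% in all). At an unadjusted p under 0.05 it was 5 of 10 members and 23.3% of all genes. The median difference was -0.22 over the members and -0.02 over all genes tested. Against PBS, limma called 0 of 10 members in MSC-EV, with 4 at an unadjusted p under 0.05 (Tlr2, Tlr5, Tlr7 and Tlr9), where 5.11% of all genes were called (3.25% lower and 1.86% higher) and 23.0% had such a p. Between HEK-EV and PBS it also called 0 of 10 members, with 1 at an unadjusted p under 0.05 (Tlr1), where 0.0% of all genes were called and 3.58% had such a p. The comparisons share their samples in pairs, so they are not independent of each other. In bulk RNA, fewer cells of a type and less RNA per cell cannot be told apart.

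**Figure D2:**
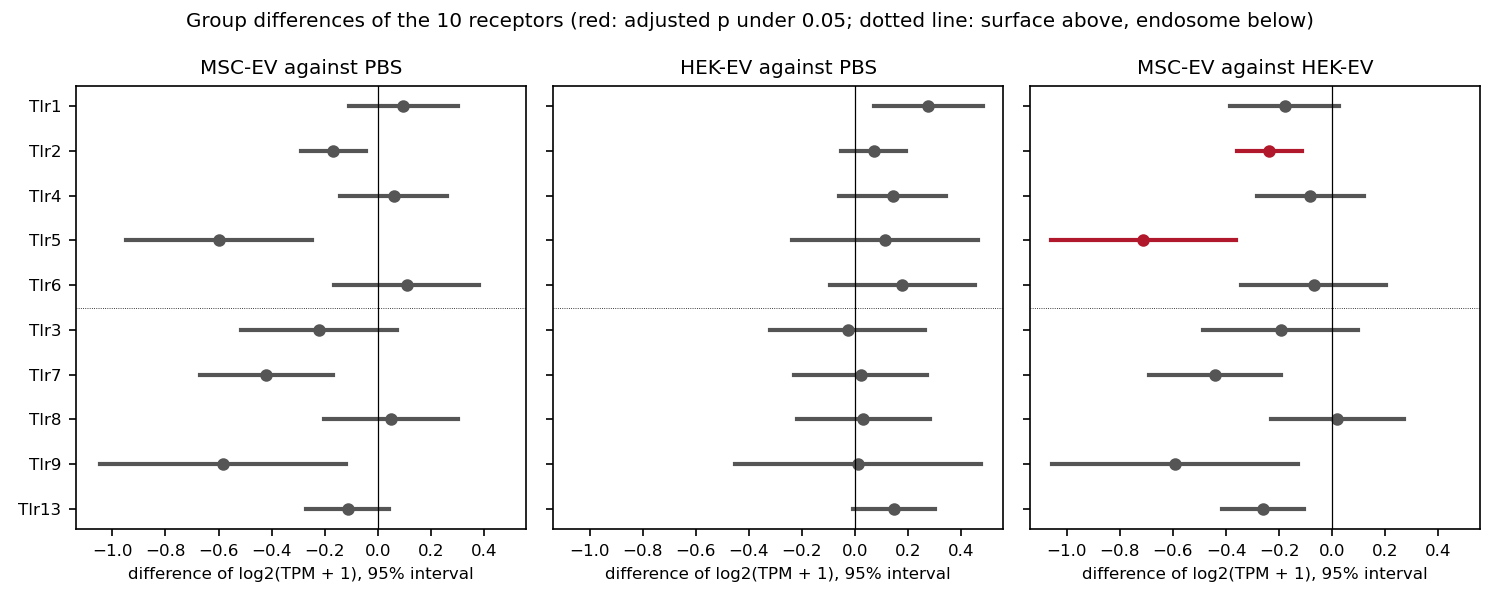
Difference of log2(TPM + 1) between groups (horizontal axis, the group named first minus the other) with its 95% interval from limma, for each receptor (rows) and comparison (panels). Tlr2 and Tlr5, in red, are the 2 of 10 with an adjusted p under 0.05 in MSC-EV against HEK-EV.

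Of the surface receptors, Tlr5, the flagellin receptor, moved most. It was at 6.23, 5.75 and 7.62 TPM with PBS, 7.23, 5.69 and 8.67 with HEK-EV and 3.37, 4.30 and 4.23 with MSC-EV. All 3 MSC-EV samples were below all 6 others, and the other groups overlapped each other. The MSC-EV level was 0.611 times the HEK-EV level on the log2(TPM + 1) scale, which understates the change of low genes (log2 difference -0.71, SE 0.156, adjusted p = 0.0334). Against PBS it was -0.60 (SE 0.156, 95% interval -0.95 to -0.25, adjusted p = 0.0585), which missed the threshold. Tlr5 was also the least covered member, at 4.49 to 10.5 reads per base, where the others had at least 11.7.

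Tlr2, the shared partner of TLR1 and TLR6, differed less but varied little within groups. It was at 144, 151 and 150 TPM with PBS, 163, 151 and 154 with HEK-EV and 135, 136 and 125 with MSC-EV. The MSC-EV samples were again below all 6 others. Its within-group SD was 2.78% to 4.30% of the mean. The difference from HEK-EV was -0.24 (SE 0.0543, adjusted p = 0.038), a level 0.848 times as high. That from PBS was -0.17 (SE 0.0543, 95% interval -0.29 to -0.05, adjusted p = 0.103).

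Without any 1 of the HEK-EV or MSC-EV samples neither call passed: the adjusted p for Tlr5 was then 0.0527 to 0.129 and for Tlr2 0.0713 to 0.115. Over all genes the calls went from 817 to between 0 and 31 in 5 of these 6 fits, and to 619 without MSC-EV replicate 3. Tlr2 also missed the threshold without PBS replicate 2 (adjusted p = 0.0548). On FPKM in place of TPM neither passed (adjusted p = 0.0588 and 0.204), and the same held without the filter on low values (0.0784 and 0.0534). Within the samples with acinar transcripts, Tlr5 was at 7.23 and 5.69 TPM in HEK-EV and 3.37 and 4.23 in MSC-EV, and within the others at 8.67 and 4.30. With that split as a term the Tlr5 call held (-0.71, adjusted p = 0.0383), and the Tlr2 difference was the same size (-0.24) but missed the threshold (adjusted p = 0.061). With depth as a covariate both passed (-0.75 and -0.26, adjusted p = 0.0356 and 0.033), but that fit cannot separate depth from the MSC-EV group. With median-of-ratios scaling, quantile normalization or a replicate block the Tlr2 call was also lost (adjusted p = 0.136, 0.145 and 0.085), with a difference of -0.14 after quantile normalization.

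Windows at the 5′ end of these genes are shown since both fell in the same comparison. They come from RefSeq (GRCm38.p6), which gave a window for 8 of the 10 members, not for Tlr4 or Tlr7. Each holds the 250 bases before a start that RefSeq gives, which need not be the outer end of the gene in the files. Of the Tlr2 window 216 bases, and of the Tlr5 window 36 bases, lie inside the span of the gene given above. Capitals mark matches, on either strand, to an NF-kB site, spelled GGG and TTCC with any 3 bases between, or to GGGCGG, a GC box.
Tlr2, chr3:83841609-83841858, minus strand: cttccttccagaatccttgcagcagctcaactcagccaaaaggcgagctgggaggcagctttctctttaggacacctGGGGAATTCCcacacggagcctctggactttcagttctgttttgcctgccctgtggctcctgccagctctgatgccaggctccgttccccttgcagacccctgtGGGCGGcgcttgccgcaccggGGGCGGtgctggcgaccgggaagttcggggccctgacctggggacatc
Tlr5, chr1:182954538-182954787, plus strand: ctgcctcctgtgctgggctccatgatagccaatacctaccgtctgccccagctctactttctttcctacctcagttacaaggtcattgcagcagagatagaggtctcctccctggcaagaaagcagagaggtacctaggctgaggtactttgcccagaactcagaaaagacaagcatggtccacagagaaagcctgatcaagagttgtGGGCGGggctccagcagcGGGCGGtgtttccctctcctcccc
The Tlr2 window held 1 match to the NF-kB letters, from 173 to 164 bases before that start, and GC boxes at 69 to 64 and 48 to 43, all 3 inside the gene's span. The Tlr5 window held GC boxes at 42 to 37 and 24 to 19, of which the second lies inside the span. The NF-kB letters were also found in windows of Tlr3 and Tlr6, and in 4.65% of all 32851 windows of this length, and GGGCGG in 32.7%. The letters GAGGAAGT (PU.1) occurred in a window of Tlr1, an ISRE, spelled GAAA and GAAA with any 2 bases between, in one of Tlr6 and TGANTCA (AP-1) in that of Tlr9, against 2.44%, 2.98% and 6.75% of all windows. Of the 10 windows of members, 7 reach into the gene's span. Such matches describe the sequence and show no binding.

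The other surface receptors overlapped between MSC-EV and either other group. Tlr1 was at 92.1, 106 and 96.2 TPM with PBS, 136, 108 and 114 with HEK-EV and 111, 105 and 99.1 with MSC-EV. All 3 HEK-EV samples were above all 3 PBS samples, which 5.51% of all genes also showed. That difference was 0.28 (SE 0.0912, unadjusted p = 0.0137, adjusted p = 0.999 in limma) and failed the adjustment. Tlr4, the lipopolysaccharide receptor, stayed between 42.6 and 52.4 TPM over the 9 samples. Its highest sample was 1.23 times its lowest, the smallest such ratio of the 10. Its difference between MSC-EV and PBS was 0.06 (95% interval -0.14 to 0.26). With depth as a covariate it was 0.31 (adjusted p = 0.0751), and that between HEK-EV and PBS was 0.28 (adjusted p = 0.37). Tlr6 ran from 23.6 to 37.2 TPM, with an interval of -0.17 to 0.38 for MSC-EV against PBS.

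Of the 5 endosomal receptors none passed the test, and Tlr7 came closest. Tlr7, a receptor for single-stranded RNA, was at 136, 188 and 167 TPM with PBS, 184, 160 and 151 with HEK-EV and 121, 123 and 120 with MSC-EV. The MSC-EV samples lay below all 6 others and close together, while the other groups overlapped. The difference was -0.44 against HEK-EV (SE 0.111, 95% interval -0.69 to -0.19, adjusted p = 0.0501) and -0.42 against PBS (SE 0.111, 95% interval -0.67 to -0.17, adjusted p = 0.0606), both short of a call. Without PBS replicate 1, the library with the lowest coverage over FPKM and the lowest PBS sample for Tlr7, both comparisons passed (adjusted p = 0.0125 and 0.00603). Over the 21 alternatives Tlr7 passed in 6 against HEK-EV (adjusted p = 0.0125 to 0.156) and in 3 against PBS (0.00127 to 0.212). With depth as a covariate it passed in both, and the difference from PBS was -0.66, though that fit cannot separate depth from the MSC-EV group.

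Tlr8, its neighbour on the X chromosome, was at 117, 120 and 96.9 TPM with PBS, 132, 109 and 101 with HEK-EV and 118, 107 and 119 with MSC-EV. The 3 groups overlapped, with an interval of -0.23 to 0.27 for MSC-EV against HEK-EV. The ratio of Tlr7 to Tlr8 within a sample, on the TPM scale, was 1.16 to 1.72 in PBS, 1.39 to 1.5 in HEK-EV and 1.01 to 1.14 in MSC-EV. The MSC-EV samples were below all others in that ratio, though MSC-EV replicate 2 (1.14) and PBS replicate 1 (1.16) nearly met. The ratio was not tested.

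Tlr9, the DNA receptor, was at 54.2, 97.5 and 58.2 TPM with PBS, 81.7, 66.2 and 58.2 with HEK-EV and 43.9, 41.3 and 49.4 with MSC-EV. The MSC-EV samples were the lowest 3 of the 9, and PBS replicate 2 stood far above the other PBS samples. The differences were -0.59 against HEK-EV and -0.58 against PBS (SE 0.206 each, adjusted p = 0.12 and 0.127), with the widest standard error of the 10 members. Without PBS replicate 2 the difference from PBS was -0.32 (adjusted p = 0.307), and with array quality weights it was -0.97 (adjusted p = 0.00361). Against HEK-EV it passed in 2 of 21 alternatives. Tlr13, the receptor for bacterial ribosomal RNA, was at 203, 215 and 220 TPM with PBS, 253, 220 and 234 with HEK-EV and 189, 190 and 211 with MSC-EV. Its MSC-EV samples were below the HEK-EV samples but overlapped PBS (-0.26 against HEK-EV, SE 0.0689, adjusted p = 0.0568). Tlr3, the double-stranded RNA receptor, ran from 9.18 to 15.6 TPM and the 3 groups overlapped.

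In all, 4 of the 10 members (Tlr2, Tlr5, Tlr7 and Tlr9) had their 3 MSC-EV samples below the 6 others, which 10.2% of all genes tested also had. These 4 cover both sites, 2 at the surface and 2 in the endosome. Groups did not overlap in 5 of 10 members for MSC-EV against HEK-EV, where 30.1% of all genes did not, and in 4 of 10 against PBS, where 26.0% did not. Between HEK-EV and PBS it was 2 of 10 (Tlr1 and Tlr13), with 7.81% of all genes.

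The summed level of the 10 receptors was 840 to 972 TPM with PBS, 912 to 1059 with HEK-EV and 786 to 820 with MSC-EV. The MSC-EV samples were below all others in this sum. Endosomal members together held 62.2% to 65.4% of the sum in PBS, 61.1% to 62.6% in HEK-EV and 59.4% to 62.3% in MSC-EV. Tlr7 took 16.2% to 19.3% of it in PBS, 16.6% to 17.6% in HEK-EV and 14.6% to 15.6% in MSC-EV. Tlr1 took 10.9% to 11.0% in PBS, 11.9% to 12.8% in HEK-EV and 12.1% to 13.6% in MSC-EV. The MSC-EV share of Tlr7 was below every sample of the other groups, and the PBS share of Tlr1 was below every sample of both vesicle groups. The MSC-EV shares of Tlr5 (0.41% to 0.55%) and Tlr9 (5.25% to 6.02%) also lay below all other samples. That of Tlr6 (3.61% to 3.91%) lay above them.

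**Figure D3:**
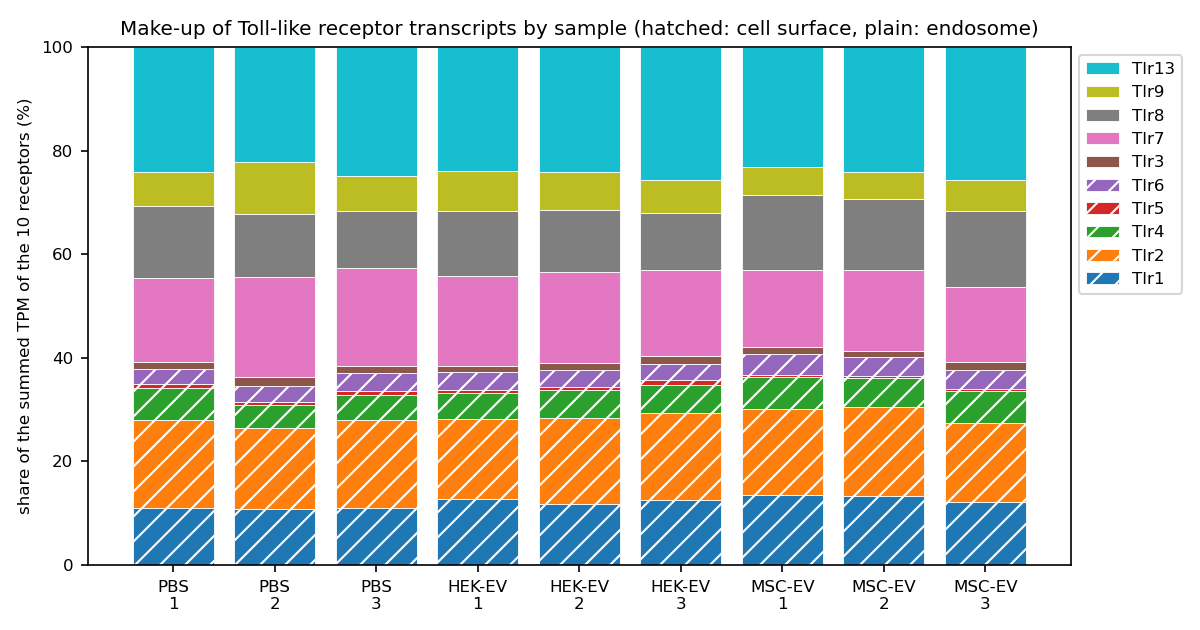
Share of each receptor in the summed TPM of the 10 (vertical axis, percent) in each of the 9 samples (bars, by group and replicate); hatched parts are surface receptors and plain parts endosomal ones. Tlr13 holds 22.1% to 25.7% in every sample, and the share of Tlr7 is lowest in the 3 MSC-EV samples.

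Since TLR2 works as a pair with TLR1 or TLR6, the ratio within a sample shows the balance of the partners on the TPM scale. Tlr1 over Tlr2 was 0.641, 0.699 and 0.642 with PBS, 0.836, 0.718 and 0.740 with HEK-EV and 0.822, 0.771 and 0.790 with MSC-EV. Every sample of both vesicle groups was above every PBS sample, and the vesicle groups overlapped. Tlr6 over Tlr2 was 0.164 to 0.203 in PBS, 0.183 to 0.229 in HEK-EV and 0.210 to 0.237 in MSC-EV. Neither ratio was tested, and both carry the uncertain split between Tlr1 and Tlr6.

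Genes of similar pattern were sought for the members that passed, by Pearson correlation of log2(TPM + 1) over the 9 samples among 9587 genes with a mean of at least 5 TPM. For Tlr2 the closest were Ppt1 (r = 0.986), Cept1 (0.986) and Esco1 (0.980), and for Tlr5 they were Ibtk (0.991), Capn2 (0.981) and Adora2b (0.976). Ppt1, a lysosomal thioesterase, averaged 223 TPM in PBS, 238 in HEK-EV and 198 in MSC-EV. Adora2b, an adenosine receptor, averaged 10.6, 11.1 and 7.22 TPM in the same order. The points share libraries and groups, so these values only describe the samples.

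Around the receptors, 84 genes in 9 lists by role were set beside the members, of which 79 were tested. Of these, 21 in 4 lists act at or before the receptors (other receptors, co-receptors, trafficking proteins and proteases) and 63 in 5 lists, 58 of them tested, act after them. In MSC-EV against HEK-EV 10 fell and 2 rose (15.2% called, against 5.91% of all genes), with a median difference of -0.10. In MSC-EV against PBS 4 fell and 2 rose (7.59% called, against 5.11% of all genes), with a median of -0.08. The genes that fell act after the receptors, 10 of 58 against HEK-EV and 4 of 58 against PBS, but that side holds most of the 79 tested. Of the 21 at or before the receptors 0 fell. Over all genes 4.4% and 3.25% fell, and at such shares few or none of 21 would fall. Both genes that rose act before the receptors. The difference between these 2 sides was not tested. In HEK-EV against PBS limma called 0 of 79. Among the adaptors, 0 of the 5 tested rose and 1 fell in MSC-EV against HEK-EV. That was Myd88, the adaptor used by all members here but Tlr3. It was at 147, 192 and 193 TPM with PBS, 205, 164 and 193 with HEK-EV and 131, 124 and 128 with MSC-EV. The MSC-EV samples were below all 6 others, with a difference of -0.55 against HEK-EV (SE 0.114, adjusted p = 0.03) and -0.46 against PBS (adjusted p = 0.0519). Ticam1, the adaptor of TLR3 and of endosomal TLR4, was at 32.6 to 34.7, 34.1 to 34.4 and 28.7 to 31.2 TPM in PBS, HEK-EV and MSC-EV, with a difference of -0.17 from PBS (adjusted p = 0.114).

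Of the 18 kinases and ubiquitin ligases, 17 were lower in MSC-EV than in HEK-EV and 5 passed: Irak4, Traf3, Peli1, Chuk and Ikbkb, with differences of -0.26, -0.41, -0.31, -0.22 and -0.34. Over all genes 7429 of 13820 were lower in this comparison and 4.4% passed as lower. Irak4 is the first kinase recruited by MyD88, and Chuk and Ikbkb encode the catalytic kinases that release NF-kB. Ikbkb also fell against PBS (-0.34, SE 0.0642, adjusted p = 0.0273), from 101 ± 2.88 to 79.8 ± 4.37 TPM (SD, n = 3). Of the 10 transcription factors, 3 fell against HEK-EV, namely Nfkb2 (-0.30), Rela (-0.25) and Irf5 (-0.34). Irf5, which drives inflammatory cytokine genes after TLR7 and TLR9, also fell against PBS (-0.37, SE 0.0658, adjusted p = 0.0251), from 400 ± 26.5 to 310 ± 11.5 TPM.

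Of the 13 inhibitors 1 passed, and it fell in both comparisons. Irak3, a kinase-like protein that holds back MyD88 signalling, was at 32.8, 35.7 and 36.2 TPM with PBS, 38.4, 33.6 and 37.6 with HEK-EV and 25.6, 26.4 and 27.7 with MSC-EV. The MSC-EV samples were below all others (-0.44 against HEK-EV and -0.38 against PBS, adjusted p = 0.0207 and 0.0265). Of the 12 tested genes that the receptors induce, 1 passed, the chemokine Ccl3, which fell against PBS in MSC-EV (-0.44, SE 0.0923, adjusted p = 0.0339). Beside both lists, 5.11% of all genes passed against PBS and 5.91% against HEK-EV. Ccl3 was at 992 ± 123 TPM in PBS, 761 ± 50.6 in HEK-EV and 730 ± 37.8 in MSC-EV (SD, n = 3). Its difference of -0.38 between HEK-EV and PBS failed the adjustment (adjusted p = 0.999).

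The endosomal proteases, which trim TLR7 and TLR9 into their active form, had both of the calls that rose. All 5 differences were positive, and Ctsb and Ctsk passed in both comparisons, with a median of 0.17 against PBS and 0.11 against HEK-EV. Over all genes 1.86% rose against PBS and 1.51% against HEK-EV, and 7231 and 6391 of 13820 differences were positive. Ctsb, cathepsin B, rose from 2819 ± 435 TPM in PBS and 2969 ± 134 in HEK-EV to 4264 ± 329 in MSC-EV (0.60 and 0.52, adjusted p = 0.0251 and 0.0311). Ctsk, cathepsin K, rose from 4.86 ± 1.06 and 4.22 ± 0.582 to 10.5 ± 2.14 TPM (0.96 and 1.12, adjusted p = 0.0251 and 0.0205). Lgmn, Ctsl and Ctss did not pass, with differences of 0.17, 0.15 and 0.08 against PBS.

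The lists of co-receptors, of trafficking proteins and of the other receptors held 0 calls in the 3 comparisons. Unc93b1, which carries the endosomal receptors out of the endoplasmic reticulum, was at 626 ± 43.5, 617 ± 32.8 and 601 ± 24.3 TPM in PBS, HEK-EV and MSC-EV (SD, n = 3). By smallest p against PBS, the lists were led by Cd36, a scavenger receptor that works with TLR2 (0.83, SE 0.227, adjusted p = 0.0674), by Slc15a4, a transporter of endolysosomes (-0.25, SE 0.072, adjusted p = 0.0739), and by Tlr12 (-0.44, SE 0.182, adjusted p = 0.187). Tlr11 and Tlr12, which bind a profilin of parasites, were low, at 2.65 and 8.98 TPM in the PBS group.

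**Figure D4:**
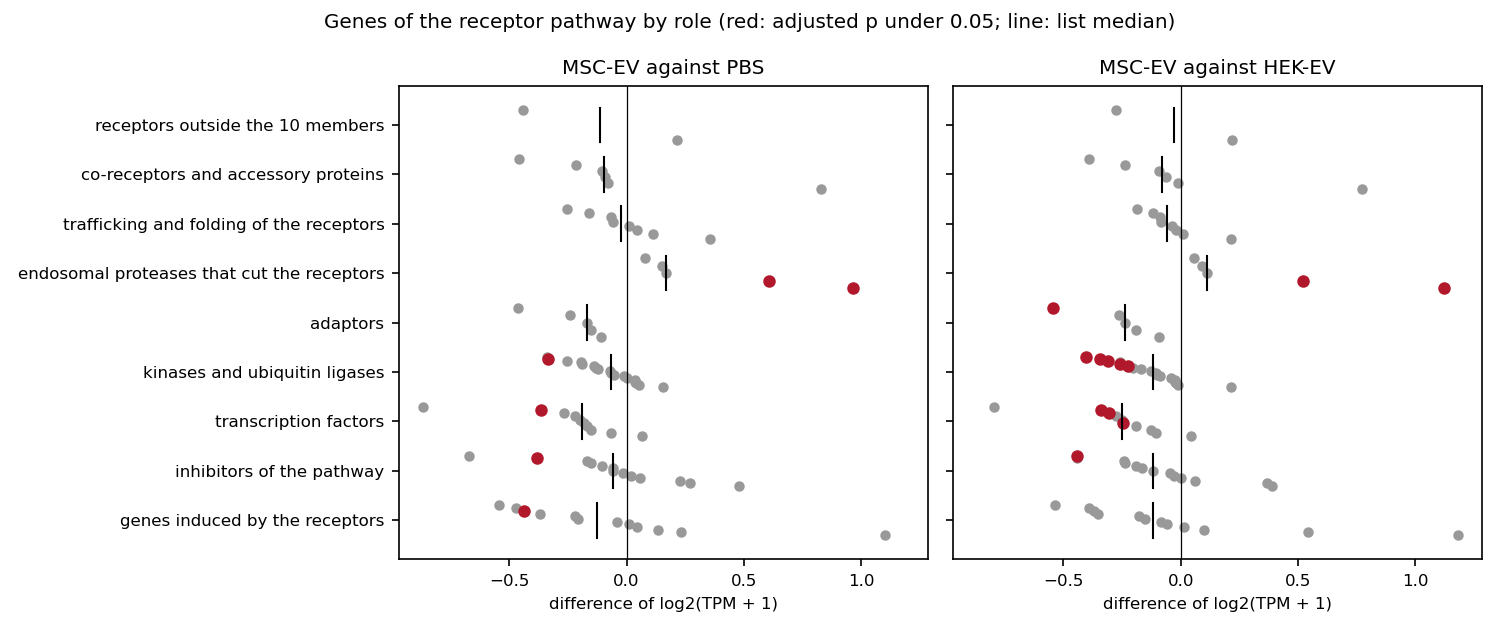
Difference of log2(TPM + 1) (horizontal axis) of each tested gene of the receptor pathway (points), by role (rows), for MSC-EV against PBS and against HEK-EV (panels); lines are list medians. The points in red passed the test, 6 against PBS and 12 against HEK-EV, and the proteases lie right of 0 while the other called genes lie left of it.

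The pathway calls depended on single libraries as those of the members did. Without any of HEK-EV replicates 1 to 3 or MSC-EV replicates 1 and 2 the count against HEK-EV went from 12 to 0, and over all genes from 817 to between 0 and 31. Without PBS replicate 2 or 3, or MSC-EV replicate 1 or 2, the count against PBS went from 6 to 0, and over all genes from 706 to between 5 and 54.

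Marker transcripts of several cell types differed between the same groups. The summed level of 7 Ly6C-high monocyte markers was 4561 to 8287 TPM in PBS, 5601 to 7573 in HEK-EV and 2577 to 3625 in MSC-EV, and that of 6 lipid-associated macrophage markers was 2540 to 4592, 3187 to 3292 and 5346 to 7091. Of the monocyte markers 3 fell against PBS and 4 against HEK-EV, and of the lipid-associated macrophage markers 4 and 3 rose. Over all genes tested 3.25% fell and 1.86% rose against PBS, and 4.4% fell and 1.51% rose against HEK-EV. The Kupffer and endothelial lists held 0 calls, though all 7 and all 6 markers were lower in MSC-EV than in PBS, with medians of -0.76 and -0.90. The 10 neutrophil markers summed to 3021 to 5580, 4999 to 6872 and 2947 to 3755 TPM, most of it S100a8 and S100a9. Of them Ltf rose in MSC-EV against PBS (0.87, adjusted p = 0.0348) and HEK-EV (1.20, adjusted p = 0.0205), and Csf3r fell against HEK-EV (-0.35, adjusted p = 0.0402). The 7 Kupffer cell markers summed to 2674 to 3231, 1830 to 3772 and 1495 to 2611 TPM. Of the types known for TLR7 and TLR9, the 6 plasmacytoid dendritic cell markers summed to 445 to 554, 409 to 461 and 405 to 448 TPM, most of it Bst2 (means of 494, 410 and 386 TPM). Klk1 of this list was at 18.9 TPM in HEK-EV replicate 2 and 52.2 TPM in MSC-EV replicate 3, the samples with the most acinar transcripts. Siglech averaged 1.16, 1.09 and 0.877 TPM and Cox6a2 1.11, 1.28 and 2.73 TPM, neither called. The list's 1 call was Tcf4, which rose in MSC-EV against PBS (0.75, adjusted p = 0.0379 in limma). Tcf4 averaged 8.57, 14.9 and 15.3 TPM, so it was as high in HEK-EV. Its difference there from PBS was 0.72 (adjusted p = 0.999 in limma), and that between the vesicle groups 0.03. The 6 B cell markers, of which 3 were tested, summed to 132 to 146, 90.3 to 160 and 118 to 162 TPM. Conventional dendritic cell markers (6 genes, 0 calls) summed to 93.6 to 126, 78.3 to 110 and 126 to 164 TPM. T and NK cell markers (6 genes, 2 tested) summed to 4.0 to 4.94, 4.12 to 5.96 and 5.62 to 9.0 TPM, and Nkg7 rose in both MSC-EV comparisons. None of the markers in these lists was at 0 in all samples. Hepatocyte markers (8 genes) summed to 413 to 489, 342 to 522 and 692 to 775 TPM, and 3 rose in MSC-EV against PBS and 5 against HEK-EV. Biliary epithelial markers (6 genes) summed to 738 to 1707, 890 to 1179 and 1769 to 2357 TPM, and 4 rose in both comparisons (Krt19, Epcam, Sox9 and Cldn7). Most of that sum is Spp1, which is also counted in the lipid-associated macrophage sum, so the 2 sums are not separate. Endothelial markers (6 genes) summed to 225 to 267, 143 to 321 and 88.0 to 173 TPM. The part of these differences in the receptor levels was not tested.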

How the data were processed

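Per the submitters' processing notes, which name HISAT2 2.1.0, StringTie and the build mm10, the authors made 1 table per sample; the annotation and the use of strand are not given in the sources used here. Libraries were TruSeq Stranded mRNA, per the labels' protocols. TPM and FPKM are the values the authors deposited, scaled to length and library size, and TPM summed to 1000000 in each sample. Coverage is the deposited mean read signal per base. Symbols came from the RefSeq table of GRCm38.p6 by gene ID (45679 of 45777), and rows of 1 gene were summed.

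The filter kept the 13820 genes that reached 1 TPM in 3 or more of the 9 samples. log2(TPM + 1) was fitted with limma 3.58.1 in R 4.3.3 (trend, all 9 samples, no covariate), two-sided, Benjamini-Hochberg over all genes tested, threshold 0.05. Python 3.11.15 made the other values. In each of 5 simulated sets of 13820 genes for MSC-EV against PBS, 200 genes were changed. Of 2-fold changes 90.2% and of 4-fold changes 99.2% were recovered, and 4.44% of calls were false. The simulated noise was normal and drawn separately for each gene, with no shift shared by a library. The planted changes were also larger than those called for Tlr2 and Tlr5 against HEK-EV. These rates therefore need not hold for the real samples.

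The members, the lists, the tests and the alternatives were chosen with earlier results of these data known. All 10 members were named; of each pathway list, the genes past the threshold or, with none, the 1 of smallest p against PBS. Every other gene of a pathway or marker list named in the text (such as Unc93b1, Ticam1, Nos2, Ccl5, Il1b, Irf7 and the single markers) falls outside that rule and was named after its values were seen, and called markers not named are given as counts, and the NF-kB and GC box spellings were set after the windows were seen. Alternatives were another pseudocount (0.1), no filter, a minimum of 5 TPM, FPKM, median-of-ratios scaling, quantile normalization, the largest row of a gene, a fit to only the 6 samples of a comparison, limma's array weights, replicate as a block, and omission of each sample in turn. Depth as a covariate and a split at 20 TPM of acinar transcripts were added after seeing the data.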

Additional observations from a re-analysis of the deposited data

How the results depend on the processing

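In MSC-EV against HEK-EV the 2 members called became 0 without the filter and on FPKM, 1 with median-of-ratios scaling, quantile normalization or the acinar split as a term (Tlr5 each time), and 4 with only the 6 samples compared (Tlr2, Tlr5, Tlr7 and Tlr9) or array quality weights (Tlr2, Tlr5, Tlr7 and Tlr13). A minimum of 5 TPM and depth as a covariate gave 3 (Tlr2, Tlr5 and Tlr7). Over all genes the 817 called became 387 without the filter, 436 on FPKM, 1098 with the 6 samples, 2081 with array weights and 1453 with depth. They became 512 with median-of-ratios scaling, 694 with quantile normalization, 550 with the acinar split and 844 at a minimum of 5 TPM. Leaving out 1 sample gave 0 to 4 members and 0 to 1384 of all genes, with the most of both without PBS replicate 1. The directions of Tlr2, Tlr5, Tlr7, Tlr9 and Tlr13 held in all 21 alternatives of both MSC-EV comparisons, as did those of Tlr1 and Tlr3. Tlr1 was higher than in PBS and lower than in HEK-EV. Several alternatives cannot move a difference: other filters, the 6 samples alone, the replicate block and omission of a sample from the third group. The differences against HEK-EV ran from -0.85 to -0.53 for Tlr5 and from -0.26 to -0.14 for Tlr2. Against PBS the 0 became 5 with array quality weights (Tlr2, Tlr3, Tlr5, Tlr7 and Tlr9), 1 with depth as a covariate (Tlr7), and 0 to 1 on leaving out 1 sample; over all genes 706 became 4163 and 1332 with those weights and depth. Between HEK-EV and PBS 0 members and 0 pathway genes were called under every alternative. The 6 pathway genes called against PBS became 3 without the filter, 2 on FPKM, 0 with only the 6 samples compared or the acinar split, 35 with array quality weights and 0 to 13 on leaving out 1 sample. Over all genes the 706 became 361 without the filter, 477 on FPKM, 77 with the 6 samples and 21 with the acinar split. On leaving out 1 sample they became 5 to 1881. The 12 against HEK-EV became 7 without the filter, 4 on FPKM or median-of-ratios scaling, 5 with quantile normalization, 20 with array quality weights, 7 with the acinar split and 0 to 17 on leaving out 1 sample. The counts over all genes in these fits are given above. The causes were not tested, beyond that leaving out a sample leaves fewer samples. Pairing by replicate number was checked. Same-numbered samples had correlations of deviations of -0.50 to 0.06, 0 of 9 pairs above 0.1, and 0 of 9 samples correlated best with their own number. These values gave no sign of pairing but cannot exclude it. With a replicate block 1 member (Tlr5), 3 pathway genes against HEK-EV and 6 against PBS were called. Over all genes the 817 against HEK-EV became 448 with the block, and the 706 against PBS became 404. The acinar split at 10 TPM was not run, since all 9 samples lay above it.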

Other observations

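Among the 15 genes listed as induced by the receptors, 4 were higher in MSC-EV replicate 1 than in the 8 other samples (Nos2, Ccl5, Il12b and Ifnb1, the last at 0.141 TPM), and 11 were within their range. The share of all genes that were highest in that sample was not counted, so this tally has no background. Nos2, Il12b and Ifnb1 failed the filter on low values. Nos2, the inducible nitric oxide synthase, was at 11.4 TPM in that sample and at 0.138 to 0.624 TPM in the other 8, and was not tested because it passed 1 TPM in that sample alone. Ccl5, a T-cell chemokine, was at 84.5 TPM there, at 19.4 and 22.3 TPM in the other MSC-EV samples and at 10.8 to 17.6 TPM in the 6 samples of the other groups. Il12b, a subunit of interleukin 12, was at 1.21 TPM there and at 0.188 to 0.539 TPM elsewhere. Of the receptors, Tlr5 (3.37 TPM) and Tlr13 (189 TPM) were at their lowest of the 9 samples there.

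Il1b, the interleukin 1 beta gene, was at 2229 to 2963 TPM in the HEK-EV samples, above the 1319 to 2158 TPM of PBS and the 1496 to 1871 TPM of MSC-EV. Its difference of 0.58 from PBS (SE 0.182, unadjusted p = 0.0103, adjusted p = 0.999 in limma) failed the adjustment. Irf7, an interferon-driven transcription factor used by TLR7 and TLR9, was at 330 to 480 TPM in MSC-EV and 511 to 1061 TPM in the other samples, and also missed the threshold (-0.87 against PBS, adjusted p = 0.0729).

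The coverage behind 1 TPM differed between members in a way that bears on the order of levels. It was 2.05 to 2.92 reads per base for Tlr4, Tlr9 and Tlr13, 1.01 to 1.43 for Tlr5 and 0.495 to 0.647 for Tlr6, where the median gene had 1.92 to 2.75 by sample. By coverage alone Tlr6 (11.7 to 20.2 reads per base) stood below Tlr3 (21.2 to 32.0), while by TPM it stood above it. Mean coverage also put Tlr2 above Tlr7 in PBS (299.9 and 291) and HEK-EV (332 and 307), Tlr8 above Tlr1 in HEK-EV (248 and 245), and Tlr8 above Tlr7 in MSC-EV (276 and 252), where TPM gave the opposite. Tlr7 over Tlr8 by coverage was 0.991 to 1.48 in PBS, 1.19 to 1.27 in HEK-EV and 0.862 to 0.981 in MSC-EV, so the MSC-EV samples were still below the others. These places in the order therefore depend on which deposited column is used.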
